A study of Mus musculus with 12 samples.

Results

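The secreted Wnt inhibitors described here are 10 genes, taken by symbol from the 49585 genes of the count tables: Dkk1, Dkk2, Dkk3, Sfrp1, Sfrp2, Sfrp4, Sfrp5, Frzb, Wif1 and Sost. They were measured by RNA-seq in 4 mesenchymal populations sorted at steady state from C57BL/6 wild-type male mice aged 8 to 10 weeks, with 3 libraries of 2000 cells for each population. All 4 populations lacked the blood and endothelial surface proteins CD45, Ter119 and CD31. Itga8+ MSCs carried Alcam and Itga8 and no Sca-1, Itga8- Alcam+ BLCs (bone-lining cells, labelled as osteoblasts) carried Alcam alone, and Sca-1+ MSCs carried Sca-1 and no Alcam. These 3 populations came from collagenase-digested fragments of flushed bone. CD51+CD140a+ MSCs were sorted from the flushed marrow, which was digested with another enzyme mixture, so that cell identity, site and digestion cannot be told apart where this population is compared with the others. The labels do not say whether the libraries of a population came from separate mice or sorts, so that p-values measure the spread between these libraries only.

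Wnt proteins are secreted signals that bind Frizzled receptors together with the co-receptors Lrp5 and Lrp6, which stabilises beta-catenin and favours bone formation by osteoblasts. Secreted inhibitors act outside the cell in 2 ways. Of the Dickkopf proteins (the Dkk genes), Dkk1 and Dkk2 bind the co-receptors, as does sclerostin (Sost), while the action of Dkk3 is less settled. Secreted frizzled-related proteins (the Sfrp genes and Frzb) and Wnt inhibitory factor 1 (Wif1) bind the Wnt proteins themselves. In adult bone, sclerostin is known as a product of osteocytes, the cells embedded in the mineral.

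Total counts ranged from 17580677 to 31332475 per library. Levels between libraries are given as CPM, counts divided by library size after TMM scaling, and levels between genes as TPM, which also divide by exon length and sum to the same total in each library. At these depths 3 counts in a library, taken as the floor, corresponded to 0.082 to 0.18 CPM. The sorts were checked against the genes of the sorted proteins. Ly6a (Sca-1) was at 610.9 to 658.7 CPM in Sca-1+ MSCs and at most 35.7 CPM elsewhere, while the genes that define CD51+CD140a+ MSCs did not set them apart from Sca-1+ MSCs. Pdgfra (CD140a) was at 681.7 to 866.9 CPM in CD51+CD140a+ MSCs and 734.5 to 1019 CPM in Sca-1+ MSCs, and Itgav (CD51) at 121.1 to 194.6 and 125.7 to 150.3 CPM. Itga8 was at 35.2 to 198.9 CPM in Itga8+ MSCs and 0.398 to 4.17 CPM in Itga8- Alcam+ BLCs, but also at 53.1 to 82.9 CPM in CD51+CD140a+ MSCs. Alcam was low throughout, at 1.29 to 5.82 CPM in the Alcam+ populations and at most 0.221 CPM in the others. Replicate 2 of the Itga8+ MSCs stood apart from its group, with correlations of 0.905 and 0.855 to replicates 1 and 3, which correlated at 0.962 with each other.

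The 4 populations carried different sets of inhibitors. Itga8- Alcam+ BLCs held the highest levels of Dkk1, Sfrp5, Frzb and Sost, Sca-1+ MSCs of Dkk2 and Dkk3, and CD51+CD140a+ MSCs of Sfrp1. Sfrp4 was high in both CD51+CD140a+ MSCs and Sca-1+ MSCs, and Wif1 in both Alcam+ populations. Mean Sfrp2 was highest in Itga8+ MSCs. The differences from the next population did not pass the test for Sfrp2 (Sca-1+ MSCs) or Sfrp5 (Itga8+ MSCs), nor for Sost (Itga8+ MSCs) when it was kept in the fit.

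**Figure D1:**
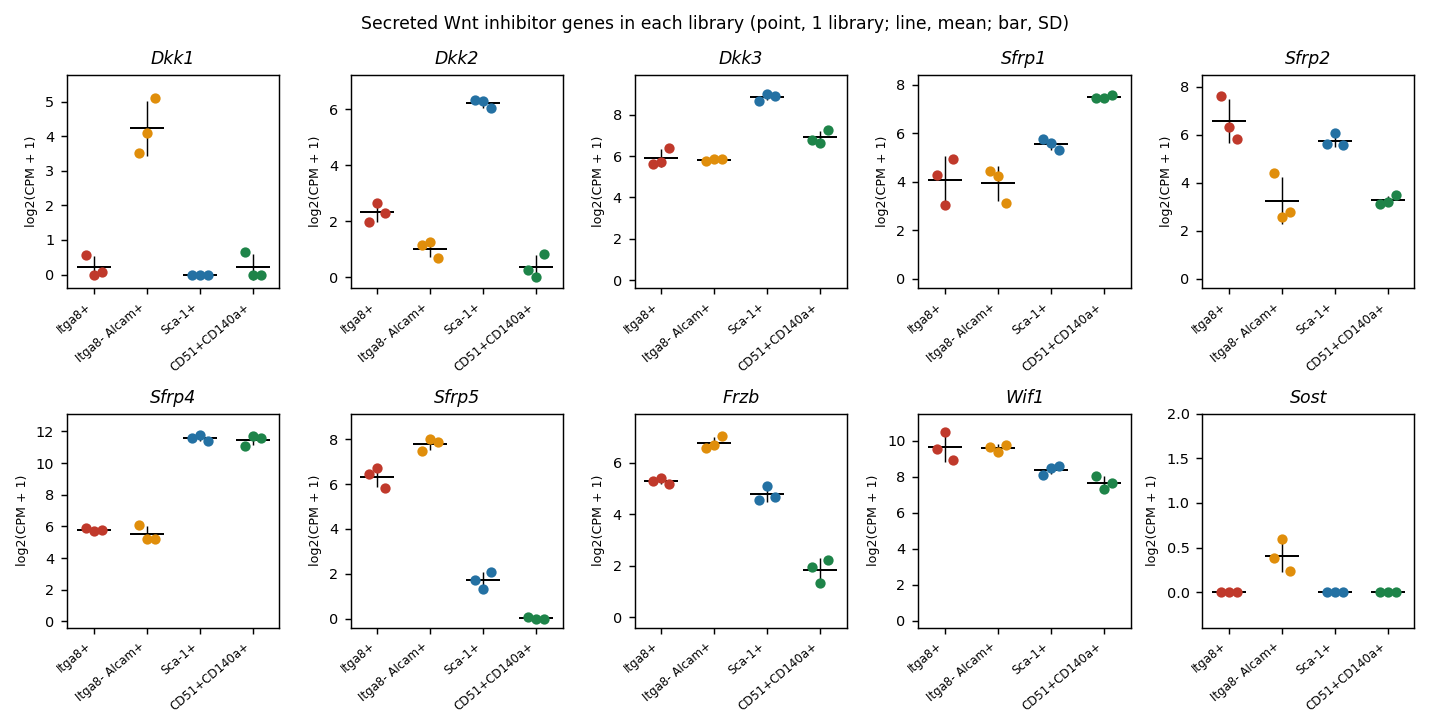
Level of each inhibitor gene, as log2(CPM + 1) on the vertical axis, in the 12 libraries, grouped by population on the horizontal axis. Points are libraries, horizontal lines are means and vertical bars are SD (n = 3). Dkk1 stands above 10 CPM only in the 3 libraries of Itga8- Alcam+ BLCs, Dkk2 is at 64.9 CPM or more only in Sca-1+ MSCs, and the 6 libraries of Sca-1+ and CD51+CD140a+ MSCs lie far above the other 6 for Sfrp4.

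All libraries were fitted together with edgeR, and a gene was called between a pair of populations at an adjusted p under 0.1 with a fold change above 2. Of the 10 inhibitors 9 passed the filter of 0.5 CPM, taken before scaling, in 1 library or more, and Sost did not. All 9 tested inhibitors were called across the 4 populations, where 47.5% of the 18648 genes tested were called. Between Itga8+ MSCs and Itga8- Alcam+ BLCs 3 of 9 were called, against 3.82% of all genes. This number was 1 without Itga8- Alcam+ BLC replicate 3 and when only these populations were fitted, and 5 with DESeq2. Between Itga8+ MSCs and Sca-1+ MSCs 6 of 9 were called (21.7% of all genes), and between Itga8+ MSCs and CD51+CD140a+ MSCs 7 of 9 (35.6%). Itga8- Alcam+ BLCs gave 7 calls against CD51+CD140a+ MSCs (35.3%) and 9 against Sca-1+ MSCs (26.4%). Sca-1+ MSCs gave 6 against CD51+CD140a+ MSCs (20.5%).

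The called inhibitors did not move in a single direction. Against Itga8- Alcam+ BLCs, Itga8+ MSCs were higher for 1 inhibitor (1.66% of all genes were called higher) and lower for 2 (2.16%). Against Sca-1+ MSCs they were higher for 2 (12.9%) and lower for 4 (8.89%), and against CD51+CD140a+ MSCs higher for 5 (21.2%) and lower for 2 (14.3%). Itga8- Alcam+ BLCs were higher for 4 (14.5%) and lower for 5 (11.9%) against Sca-1+ MSCs, and higher for 4 (20.4%) and lower for 3 (14.9%) against CD51+CD140a+ MSCs. Sca-1+ MSCs were higher for 5 (11.2%) and lower for 1 (9.3%) against CD51+CD140a+ MSCs. The libraries of Itga8+ MSCs did not overlap with those of Itga8- Alcam+ BLCs for 5 of the 9 tested inhibitors (14.2% of all genes), with those of Sca-1+ MSCs for 7 (37.6%) and with those of CD51+CD140a+ MSCs for 8 (44.4%). Itga8- Alcam+ BLCs were clear of Sca-1+ MSCs for 9 (45.7%) and of CD51+CD140a+ MSCs for 7 (49.8%). Sca-1+ MSCs were clear of CD51+CD140a+ MSCs for 7 (45.9%). In size, the median absolute log2 difference of the 9 ranged from 1.39 to 3.66 over the 6 comparisons, with genes without counts in a group set at their lower bound, while that of all genes ranged from 0.44 to 1.06. The comparisons share libraries, so their counts are not independent.

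**Figure D2:**
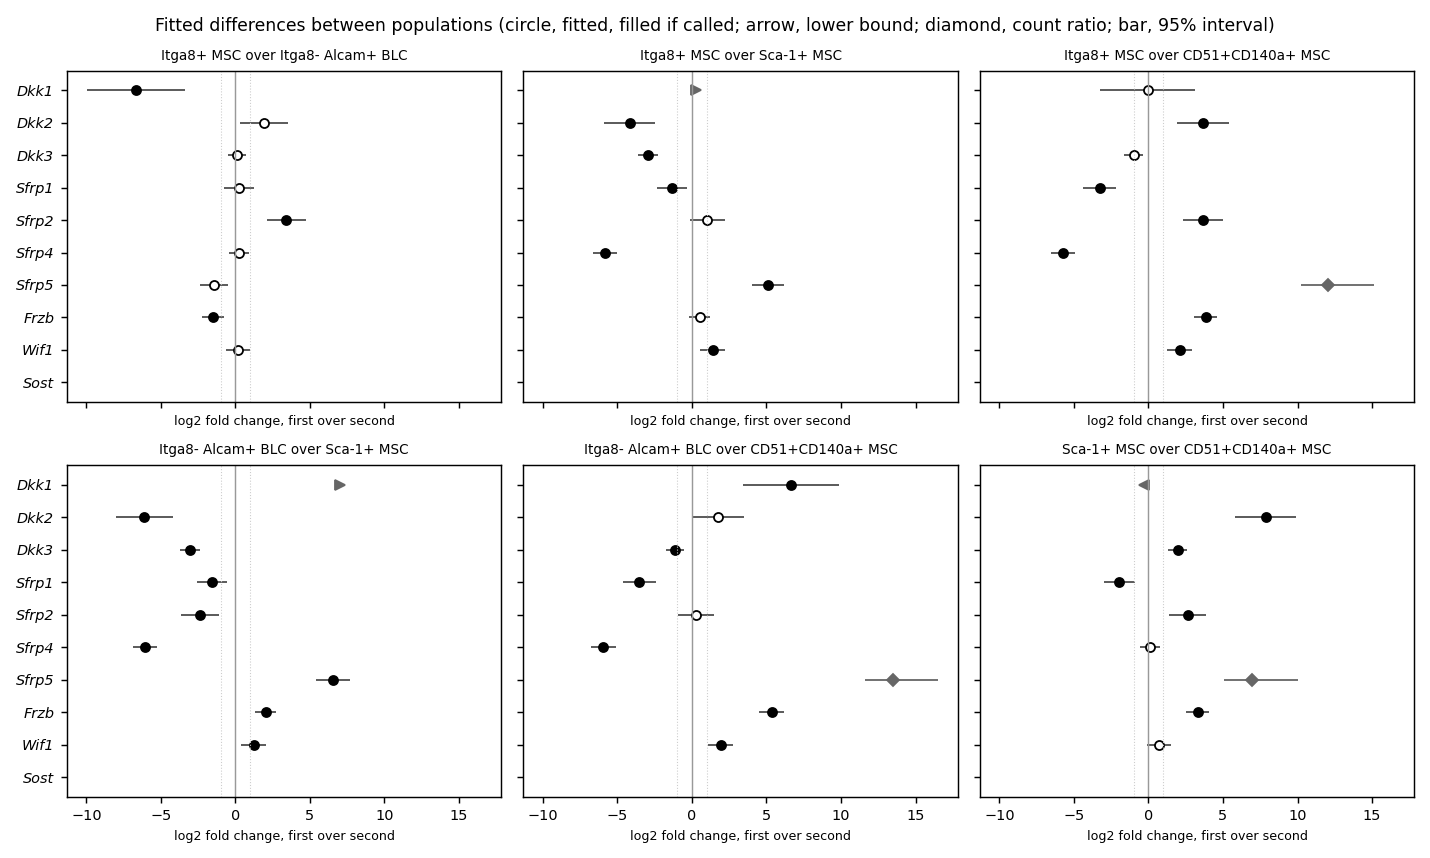
Log2 fold change of each inhibitor gene in the 6 comparisons, with the first-named population over the second on the horizontal axis. Circles are fitted values with 95% intervals, filled where the gene was called. Arrows are lower bounds on the size of the difference where either population had no counts. Diamonds are ratios of counts with counting intervals where the second population had 2 counts in all. Sost, which did not pass the filter, has no value. In the comparison of the Alcam+ populations only Dkk1, Sfrp2 and Frzb are filled, and every tested gene but Dkk1, drawn as a bound, is filled in that of Itga8- Alcam+ BLCs with Sca-1+ MSCs.

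The stretches upstream of the start sites of 5 inhibitors with different patterns are shown here, so that their start regions can be set side by side: Dkk1 (highest in Itga8- Alcam+ BLCs), Dkk2 (Sca-1+ MSCs), Sfrp2 (Itga8+ MSCs), Sfrp5 and Wif1 (both Alcam+ populations). RefSeq windows of 300 bases, from 250 before to 50 after a start site on GRCm38.p6, were found for 7 of the 10 inhibitors. Dkk3, Sfrp1 and Sfrp4 were not matched. Only bases upstream of both the RefSeq and the GENCODE starts are printed, 5′ to 3′ on the strand of the gene, with matches to the motifs searched in capitals. The motifs were CTTTGA, the core bound by TCF/LEF factors of the Wnt pathway, TGTGGT, the core bound by RUNX factors, and TATAAA, the TATA box, on both strands.
Dkk1, chr19:30549666-30549746, minus strand: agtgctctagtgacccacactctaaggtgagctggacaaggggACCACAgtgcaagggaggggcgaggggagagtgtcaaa
Dkk2, chr3:132085042-132085291, plus strand: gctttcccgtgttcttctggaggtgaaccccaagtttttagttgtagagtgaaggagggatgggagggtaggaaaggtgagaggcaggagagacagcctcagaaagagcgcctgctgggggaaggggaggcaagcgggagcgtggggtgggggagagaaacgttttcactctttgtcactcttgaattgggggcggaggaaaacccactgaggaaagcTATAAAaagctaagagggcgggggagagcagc
Sfrp2, chr3:83766071-83766320, plus strand: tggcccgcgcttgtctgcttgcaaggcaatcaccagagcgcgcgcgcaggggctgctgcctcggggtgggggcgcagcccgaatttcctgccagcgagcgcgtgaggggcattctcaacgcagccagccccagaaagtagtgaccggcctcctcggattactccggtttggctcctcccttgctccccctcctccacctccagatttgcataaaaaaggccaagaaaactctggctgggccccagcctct
Sfrp5, chr19:42202253-42202502, minus strand: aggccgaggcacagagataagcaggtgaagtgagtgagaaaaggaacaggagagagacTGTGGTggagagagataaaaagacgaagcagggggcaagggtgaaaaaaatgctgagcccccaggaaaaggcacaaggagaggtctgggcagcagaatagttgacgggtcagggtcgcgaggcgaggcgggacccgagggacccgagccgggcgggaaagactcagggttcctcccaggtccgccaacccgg
Wif1, chr10:121033754-121033959, plus strand: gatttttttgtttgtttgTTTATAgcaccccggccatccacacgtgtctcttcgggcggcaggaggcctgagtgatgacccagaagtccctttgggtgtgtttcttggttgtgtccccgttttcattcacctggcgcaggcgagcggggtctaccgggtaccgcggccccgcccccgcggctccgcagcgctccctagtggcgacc

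In these sequences the capitals mark a RUNX core in Dkk1 (on the opposite strand, as ACCACA) and in Sfrp5, a TATA box in Dkk2, and TTTATA, the TATA box letters on the opposite strand, in Wif1. No match was found in Sfrp2. In the full window of 300 bases Dkk1 also held the TCF/LEF core at -174 and -117 and the TATA box at -54 from the RefSeq start at position 30549496. The GENCODE start of Dkk1 is at 30549665, so these bases are not all upstream of it. Frzb held 1 TCF/LEF core, at -95, and the Sost window held none of the 3 motifs. Among all 32851 windows of this length, 16.0% held the TCF/LEF core, 16.8% the RUNX core and 13.6% the TATA box. A match of 6 letters describes the sequence only.

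Dkk1 (ENSMUSG00000024868, chr19:30545863-30549665, minus strand) encodes the best studied inhibitor of the Lrp5 and Lrp6 co-receptors. It was at 10.5, 15.9 and 33.1 CPM in the 3 libraries of Itga8- Alcam+ BLCs. In Itga8+ MSCs it was at 0.495, 0 and 0.0578 CPM, in Sca-1+ MSCs at 0 in all 3 libraries, and in CD51+CD140a+ MSCs at 0.574, 0 and 0 CPM. The libraries of Itga8- Alcam+ BLCs thus lay above all 9 others, which held at most 21 counts each. The fitted difference of Itga8+ MSCs from Itga8- Alcam+ BLCs was -6.67 ± 1.49 on the log2 scale (SE, edgeR quasi-likelihood test, adjusted p = 0.048), with a 95% interval of -9.99 to -3.35. This call was lost without Itga8+ MSC replicate 3 (-6.26) and without Itga8- Alcam+ BLC replicate 3 (-6.07), and the value was -9.24 without Itga8+ MSC replicate 1. Itga8- Alcam+ BLCs exceeded CD51+CD140a+ MSCs by 6.62 ± 1.45 (SE, adjusted p = 0.0070, edgeR). All 21 counts of CD51+CD140a+ MSCs were in replicate 1, and without it the fitted value was 11.76, which then rests on a group with no counts. Itga8- Alcam+ BLCs were at least 129-fold higher than Sca-1+ MSCs, taken against the floor of 3 counts per library. No order could be given for the other 3 populations, which lay at or near the floor.

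Sost (ENSMUSG00000001494, chr11:101962458-101967015, minus strand), the sclerostin gene, had 6, 11 and 3 counts in Itga8- Alcam+ BLCs, or 0.299, 0.51 and 0.18 CPM. It had no count in the 9 libraries of the other populations. Against the floor of 3 counts per library, Itga8- Alcam+ BLCs were at least 2.07-fold higher than Itga8+ MSCs, at least 2.15-fold higher than Sca-1+ MSCs and at least 3.74-fold higher than CD51+CD140a+ MSCs. With every gene of at least 1 count kept in the fit, Sost had an adjusted p of 0.086 against Sca-1+ MSCs, 0.043 against CD51+CD140a+ MSCs and 0.31 against Itga8+ MSCs (edgeR).

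Many markers of osteocytes and osteoblasts were also called higher in the population with Dkk1 and Sost. Of 6 osteocyte markers Itga8- Alcam+ BLCs were called higher for 4 against Itga8+ MSCs, for 3 against CD51+CD140a+ MSCs and for 4 against Sca-1+ MSCs. Their summed level was 1749 to 2418 CPM in Itga8- Alcam+ BLCs, 2.6 to 8.55 CPM in Itga8+ MSCs, 32.3 to 51.3 CPM in Sca-1+ MSCs and 125.8 to 148.4 CPM in CD51+CD140a+ MSCs. Most of that sum was Dmp1, a matrix protein of osteocytes and late osteoblasts, at 1634, 1715 and 2265 CPM in Itga8- Alcam+ BLCs. Of 10 osteoblast markers Itga8- Alcam+ BLCs were called higher for 7 against CD51+CD140a+ MSCs, 8 against Sca-1+ MSCs and 9 against Itga8+ MSCs. These 10 summed to 47053 to 116947 CPM there and to at most 22060 CPM in any other library, with Col1a1 (a collagen of bone matrix) alone at 16656 to 107157 CPM. Ibsp (bone sialoprotein) was called lower there than in CD51+CD140a+ MSCs, with means of 3462 and 10118 CPM, and the means of Runx2 (71.5 and 77.8 CPM) and of the osteocyte hormone gene Fgf23 (0.205 and 0.825 CPM) were also highest in CD51+CD140a+ MSCs, although these differences were not called. Replicate 3 held the highest Dkk1, the highest Dmp1 and the highest Bglap (osteocalcin, 6983 CPM against 1753 and 1176 CPM). The same replicate held the lowest Sost, with 3 counts against 6 and 11, so that Sost did not follow these genes across the libraries. The part of these cells in the Dkk1 and Sost values was not tested. In sorted bulk libraries, fewer cells of a type and less RNA per cell cannot be told apart.

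Dkk2 (ENSMUSG00000028031, chr3:132085292-132180304, plus strand), another ligand of the co-receptors, was at 79.8, 77.6 and 64.9 CPM in Sca-1+ MSCs. It was at 2.97, 5.35 and 3.87 CPM in Itga8+ MSCs, at 1.2, 1.39 and 0.6 CPM in Itga8- Alcam+ BLCs, and at 0.191, 0 and 0.773 CPM in CD51+CD140a+ MSCs. Sca-1+ MSCs stood above every other library, and Itga8+ MSCs above those of the remaining populations. Itga8+ MSCs were lower than Sca-1+ MSCs by a log2 difference of -4.19 ± 0.78 (SE, adjusted p = 0.0042, edgeR) and higher than CD51+CD140a+ MSCs by 3.67 ± 0.81 (adjusted p = 0.0056). The largest difference, Sca-1+ MSCs over CD51+CD140a+ MSCs, was 7.85 ± 0.94 (adjusted p = 1.03e-04). Itga8- Alcam+ BLCs did not differ by the test from Itga8+ MSCs (adjusted p = 0.29) or CD51+CD140a+ MSCs (adjusted p = 0.12), the neighbours in this order. The former passed with DESeq2 (1.96) and without CD51+CD140a+ MSC replicate 2 (1.92). The latter passed with DESeq2 (1.77), without Itga8+ MSC replicate 2 (1.76) and without CD51+CD140a+ MSC replicate 3 (3.39). CD51+CD140a+ MSCs held only 7, 0 and 24 counts of Dkk2, and with 1 library left out the value ranged from 3.08 to 5.31 for Itga8+ MSCs and from 7.26 to 9.50 for Sca-1+ MSCs over this population, the lowest without its replicate 2 and the highest without its replicate 3.

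Dkk3 (ENSMUSG00000030772, chr7:112116017-112159057, minus strand) is a divergent member of the Dickkopf family whose action on Wnt signalling is less settled. It was measured well above the floor in every library. Sca-1+ MSCs had 408.6, 515.9 and 473.5 CPM and CD51+CD140a+ MSCs 110.4, 97.9 and 153.5 CPM. Itga8+ MSCs had 48, 50.9 and 82.6 CPM, and Itga8- Alcam+ BLCs 53.2, 57.1 and 56.5 CPM. Sca-1+ MSCs were thus highest and CD51+CD140a+ MSCs second, without overlap, while the Alcam+ populations overlapped. Relative to Sca-1+ MSCs the log2 difference was -2.95 ± 0.30 in Itga8+ MSCs (SE, adjusted p = 1.32e-04, edgeR) and -3.07 ± 0.30 in Itga8- Alcam+ BLCs (adjusted p = 5.96e-05), and Sca-1+ MSCs exceeded CD51+CD140a+ MSCs by 1.95 ± 0.29. Itga8- Alcam+ BLCs were lower than CD51+CD140a+ MSCs by -1.12 ± 0.28 (adjusted p = 0.011), a call lost without CD51+CD140a+ MSC replicate 3 (-0.91). Itga8+ MSCs were 1.99-fold below CD51+CD140a+ MSCs (adjusted p = 0.020), just short of the fold required. This difference was called in 7 alternatives, at -1.01 to -1.29 on the log2 scale, among them the replicate block (-1.01), library totals alone (-1.10) and the fit without Itga8+ MSC replicate 3 (-1.29).

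Genes that mark Sca-1+ fibroblasts of vessel walls and connective tissue went with Dkk2 and Dkk3. All 7 were called higher in Sca-1+ MSCs than in each other population. They summed to 3184 to 3912 CPM in Sca-1+ MSCs, at most 134.2 CPM in the Alcam+ populations and at most 20.7 CPM in CD51+CD140a+ MSCs. Dkk3 was nevertheless higher in CD51+CD140a+ MSCs than in the Alcam+ populations, where this sum was larger. The part of these cells in the Dkk2 and Dkk3 values was not tested.

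Sfrp4 (ENSMUSG00000021319, chr13:19623104-19632994, plus strand), whose loss in people and mice thins cortical bone, had the highest TPM of any inhibitor, with means of 2720 ± 451 TPM in CD51+CD140a+ MSCs and 2749 ± 362 TPM in Sca-1+ MSCs (SD, n = 3). It was at 2139, 3351 and 3071 CPM in CD51+CD140a+ MSCs and at 3066, 3472 and 2723 CPM in Sca-1+ MSCs. In Itga8+ MSCs it was at 58.5, 51.5 and 52.7 CPM, and in Itga8- Alcam+ BLCs at 68.1, 36.3 and 35.3 CPM. The populations fell into a high and a low pair, with overlap within each pair and none between them. The log2 difference from Sca-1+ MSCs was -5.83 ± 0.37 in Itga8+ MSCs (SE, adjusted p = 1.03e-05, edgeR) and -6.05 ± 0.38 in Itga8- Alcam+ BLCs (adjusted p = 4.16e-06). From CD51+CD140a+ MSCs it was -5.72 ± 0.37 (adjusted p = 1.40e-06) and -5.94 ± 0.37 (adjusted p = 1.12e-06). Sca-1+ MSCs and CD51+CD140a+ MSCs differed by 0.11, with a 95% interval of -0.54 to 0.77.

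Sfrp1 (ENSMUSG00000031548, chr8:23411502-23449632, plus strand), a Wnt-binding protein known to restrain bone formation, was at 177.2, 174.3 and 190.1 CPM in CD51+CD140a+ MSCs. It was at 52.7, 47.3 and 38.6 CPM in Sca-1+ MSCs, at 18.6, 7.27 and 29.8 CPM in Itga8+ MSCs, and at 20.9, 18 and 7.67 CPM in Itga8- Alcam+ BLCs. CD51+CD140a+ MSCs and then Sca-1+ MSCs stood apart from the overlapping Alcam+ populations. Compared with CD51+CD140a+ MSCs the log2 difference was -3.28 ± 0.50 in Itga8+ MSCs (SE, adjusted p = 4.91e-04, edgeR), -3.54 ± 0.51 in Itga8- Alcam+ BLCs (adjusted p = 3.16e-04) and -1.97 ± 0.47 in Sca-1+ MSCs (adjusted p = 0.012). The difference of Itga8+ MSCs from Sca-1+ MSCs was -1.32 ± 0.47 (adjusted p = 0.077). That call was lost with any 1 of 7 libraries left out, among them Itga8+ MSC replicate 2 (-0.95) and each of the Sca-1+ MSC libraries, and when only these populations were fitted (-1.34). The call of Itga8- Alcam+ BLCs below Sca-1+ MSCs (-1.57 ± 0.47, adjusted p = 0.034) was lost without Itga8- Alcam+ BLC replicate 3 (-1.25).

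The 9 markers of Lepr+ marrow stroma separated CD51+CD140a+ MSCs from the rest. All 9 were called higher there than in Itga8+ MSCs and than in Sca-1+ MSCs, and 8 than in Itga8- Alcam+ BLCs. Their summed level was 54095 to 71809 CPM in CD51+CD140a+ MSCs and at most 909.9 CPM in every other library. Sfrp1 was also highest there, whereas Sfrp4 was as high in Sca-1+ MSCs, where the marker sum was 815.3 to 909.9 CPM. The part of these cells in the Sfrp1 values was not tested.

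Sfrp2 (ENSMUSG00000027996, chr3:83766321-83774316, plus strand) is a Wnt-binding protein made by many connective tissue cells. It was at 195.2, 79.5 and 56.2 CPM in Itga8+ MSCs and at 48, 66.2 and 47 CPM in Sca-1+ MSCs. It was at 20.1, 5.01 and 5.94 CPM in Itga8- Alcam+ BLCs and at 7.79, 8.08 and 10.2 CPM in CD51+CD140a+ MSCs. Itga8+ MSCs and Sca-1+ MSCs overlapped, as did the other pair, and replicate 1 was the highest library in both Alcam+ populations. Itga8+ MSCs exceeded Itga8- Alcam+ BLCs by a log2 difference of 3.41 ± 0.60 (SE, adjusted p = 0.0093, edgeR) and CD51+CD140a+ MSCs by 3.66 ± 0.60 (adjusted p = 8.64e-04). The first call was lost when only the Alcam+ populations were fitted (3.40, adjusted p = 0.117), and the values were 2.71 and 2.96 without Itga8+ MSC replicate 1. Without Itga8- Alcam+ BLC replicate 1 the first was 4.35. Sca-1+ MSCs exceeded CD51+CD140a+ MSCs by 2.63 ± 0.58 (adjusted p = 0.0072), and Itga8- Alcam+ BLCs were lower than Sca-1+ MSCs by -2.37 ± 0.57 (adjusted p = 0.013), or -3.34 without Itga8- Alcam+ BLC replicate 1. The difference between Itga8+ MSCs and Sca-1+ MSCs was 1.04, with a 95% interval of -0.16 to 2.23 (adjusted p = 0.21), and 0.34 without Itga8+ MSC replicate 1. Gm26771 lies on the opposite strand over 16.1% of the exon bases of Sfrp2. It was at 0.139 to 6.04 CPM, and how the counting used strand is not given in the sources used here.

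Tendon markers were higher in Itga8+ MSCs than in Itga8- Alcam+ BLCs, as was Sfrp2. Of 8 such genes 6 were called higher, and their sum was 13318 to 25443 CPM against 3814 to 6632 CPM. It was 6645 to 9869 CPM in Sca-1+ MSCs. In CD51+CD140a+ MSCs it was 8907 to 10019 CPM, of which Tnc (tenascin C) was 8824 to 9906 CPM, and the means of Scx, Tnmd, Kera, Thbs4 and Chodl were at most 0.225 CPM. Itga8+ MSCs were called higher than CD51+CD140a+ MSCs for 7 of the 8 genes and lower for Tnc. The part of these cells in the Sfrp2 values was not tested.

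Sfrp5 (ENSMUSG00000018822, chr19:42197971-42202252, minus strand), a Wnt-binding protein best known from fat tissue, was at 176.4, 253 and 234 CPM in Itga8- Alcam+ BLCs and at 86.5, 105 and 55.5 CPM in Itga8+ MSCs. It was at 2.32, 1.53 and 3.28 CPM in Sca-1+ MSCs and at 0.0546, 0 and 0 CPM in CD51+CD140a+ MSCs. The 4 populations did not overlap. Itga8+ MSCs exceeded Sca-1+ MSCs by a log2 difference of 5.11 ± 0.50 (SE, adjusted p = 1.09e-04, edgeR) and Itga8- Alcam+ BLCs did so by 6.53 ± 0.53 (adjusted p = 2.04e-05). The difference of Itga8+ MSCs from Itga8- Alcam+ BLCs, -1.43 ± 0.42, did not pass (adjusted p = 0.12). It passed with DESeq2 (-1.40), without Itga8+ MSC replicate 2 (-1.62) and without CD51+CD140a+ MSC replicate 1 (-1.43). CD51+CD140a+ MSCs held 2 counts of Sfrp5 in all. The ratio of pooled counts was 4270 for Itga8+ MSCs over this population, with a 95% counting interval of 1181 to 35270, and 123 for Sca-1+ MSCs (33.5 to 1027). For Itga8- Alcam+ BLCs it was 11340 (3139 to 93649). These intervals cover counting error only.

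Frzb (ENSMUSG00000027004, chr2:80411970-80447625, minus strand), also called Sfrp3 and first found in cartilage, had the same order. It was at 95.2, 102.1 and 130.4 CPM in Itga8- Alcam+ BLCs, at 38.4, 42.1 and 35 CPM in Itga8+ MSCs, at 22.7, 33 and 24.5 CPM in Sca-1+ MSCs, and at 2.9, 1.52 and 3.64 CPM in CD51+CD140a+ MSCs. No population overlapped another. The log2 difference of Itga8+ MSCs from Itga8- Alcam+ BLCs was -1.50 ± 0.33 (SE, adjusted p = 0.031, edgeR). This call was lost without Itga8+ MSC replicate 1 (-1.50), without Itga8- Alcam+ BLC replicate 3 (-1.36), and when only the Alcam+ populations were fitted (-1.51). Itga8- Alcam+ BLCs exceeded Sca-1+ MSCs by 2.03 ± 0.33 (adjusted p = 0.0014) and CD51+CD140a+ MSCs by 5.34 ± 0.39 (adjusted p = 2.60e-06). CD51+CD140a+ MSCs were also below Itga8+ MSCs, by 3.84 ± 0.36 (adjusted p = 1.70e-05), and below Sca-1+ MSCs, by 3.31 ± 0.35 (adjusted p = 4.50e-05). Itga8+ MSCs and Sca-1+ MSCs, neighbours in the order, differed by 0.53 with a 95% interval of -0.17 to 1.23.

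Wif1 (ENSMUSG00000020218, chr10:121033960-121100650, plus strand), which binds Wnt proteins through its own WIF domain, had the smallest fitted fold between its highest and lowest population of the 9 tested inhibitors, 4.28. It was at 745.7, 1440 and 479.4 CPM in Itga8+ MSCs and at 809.4, 673.2 and 873.6 CPM in Itga8- Alcam+ BLCs. It was at 278, 358.3 and 380.7 CPM in Sca-1+ MSCs and at 265.4, 158.7 and 198.4 CPM in CD51+CD140a+ MSCs. All 6 libraries of the Alcam+ populations lay above the other 6. Itga8+ MSCs exceeded Sca-1+ MSCs by a log2 difference of 1.39 ± 0.38 (SE, adjusted p = 0.028, edgeR) and CD51+CD140a+ MSCs by 2.10 ± 0.38 (adjusted p = 0.0018). Itga8- Alcam+ BLCs exceeded them by 1.21 ± 0.38 (adjusted p = 0.039) and 1.92 ± 0.38 (adjusted p = 0.0029). The call of Itga8+ MSCs over Sca-1+ MSCs was lost without Itga8+ MSC replicate 2 (0.84) or Sca-1+ MSC replicate 1 (1.27), and that of Itga8- Alcam+ BLCs over Sca-1+ MSCs without Sca-1+ MSC replicate 1 (1.09). The Alcam+ populations differed by 0.18 and Sca-1+ from CD51+CD140a+ MSCs by 0.71, and neither passed (adjusted p = 0.94 and 0.25).

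Mean Sfrp5, Frzb and Wif1 were higher in the Alcam+ populations than in the others, as were the sums of cartilage and of blood-cell markers. For Frzb the difference of Itga8+ MSCs from Sca-1+ MSCs was not called. Sfrp5 and Frzb were called higher in Sca-1+ MSCs than in CD51+CD140a+ MSCs, although the blood-cell sums of these populations overlapped. The 10 cartilage markers summed to 33720 to 130951 CPM in Itga8+ MSCs, 19884 to 84306 CPM in Itga8- Alcam+ BLCs, 7279 to 9659 CPM in Sca-1+ MSCs and 611 to 1485 CPM in CD51+CD140a+ MSCs. Most of the sum in Sca-1+ MSCs was Chad, with a mean of 6591 CPM there and 3383 CPM in Itga8- Alcam+ BLCs. Col2a1 had means of 57762 CPM in Itga8+ MSCs and 34237 CPM in Itga8- Alcam+ BLCs. Of these 10 genes 8 were called higher in each Alcam+ population than in Sca-1+ MSCs, and their sums overlapped between the Alcam+ populations, where Frzb was called. The 11 blood-cell markers summed to 2313 to 11876 CPM in Itga8+ MSCs, 4351 to 6514 CPM in Itga8- Alcam+ BLCs, 886.1 to 1734 CPM in Sca-1+ MSCs and 993.8 to 1702 CPM in CD51+CD140a+ MSCs. Itga8+ MSC replicate 2 held the highest Wif1 and the highest level of the neutrophil genes S100a8 (1954 CPM) and S100a9 (2345 CPM). The T-cell gene Cd3e was at 0 in all 12 libraries, and the pan-leukocyte gene Ptprc was at 3.54 to 31.6 CPM. Mural cell markers, of which Itga8+ MSCs were called higher for 3 of 5 against each of the CD51+CD140a+ and Sca-1+ populations and for 1 against Itga8- Alcam+ BLCs, summed to 127 to 350 CPM in Itga8+ MSCs and at most 76.3 CPM elsewhere. Endothelial markers summed to at most 147.7 CPM, highest in Sca-1+ MSCs, and skeletal muscle markers to at most 42 CPM. Of 5 tested skeletal muscle markers Itga8+ MSCs were called higher for 4 against Sca-1+ MSCs. Against CD51+CD140a+ MSCs they were called higher for 3 and lower for 1, and against Itga8- Alcam+ BLCs for none. Erythroid genes summed to at most 496.2 CPM except in Itga8+ MSC replicate 2, at 1559 CPM. The part of any of these cells in the Sfrp2, Sfrp5, Frzb and Wif1 values was not tested.

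Per exon length, the 10 inhibitors together amounted to 1154 to 1881 TPM in Itga8+ MSCs and 1287 to 1692 TPM in Itga8- Alcam+ BLCs. They amounted to 3038 to 3641 TPM in CD51+CD140a+ MSCs and 3664 to 4487 TPM in Sca-1+ MSCs, so that every library of these populations lay above all 6 Alcam+ libraries. In Itga8- Alcam+ BLCs Wif1 made up 62.3% ± 4.2 of this sum, and in Itga8+ MSCs 69.4% ± 10.4 (SD, n = 3). Sfrp4 made up 79.7% ± 6.1 in CD51+CD140a+ MSCs and 68.2% ± 3.2 in Sca-1+ MSCs. Sfrp5 followed in Itga8- Alcam+ BLCs (22.6% ± 4.7). In Itga8+ MSCs Sfrp2 made up 10.7% ± 7.0 and Sfrp5 8.78% ± 1.0, and Sfrp2 was the larger only in replicate 1, at 18.6%. The share of Wif1 was 10.5% ± 4.5 in CD51+CD140a+ MSCs. Wif1 (13.0% ± 2.3) and Dkk3 (12.8% ± 1.1) were close in Sca-1+ MSCs, and Wif1 was the larger only in replicate 3.

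**Figure D3:**
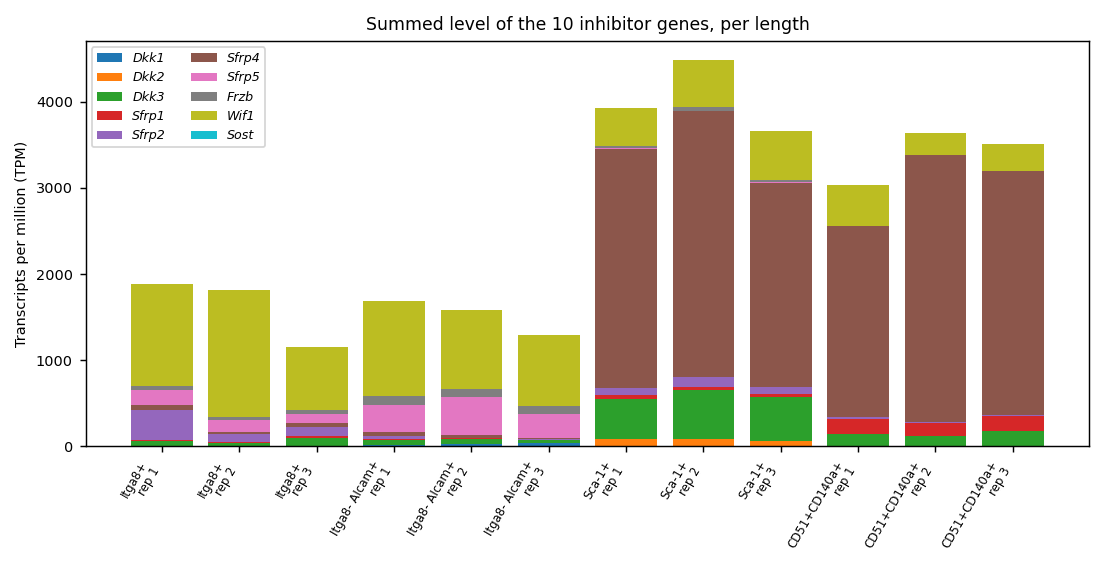
Summed level of the 10 inhibitor genes in TPM on the vertical axis, stacked by gene, for each of the 12 libraries on the horizontal axis. Wif1 is the largest part of the 6 Alcam+ libraries, whose sums lie between 1154 and 1881 TPM, and Sfrp4 is the largest part of the other 6, between 3038 and 4487 TPM.

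The other Wnt pathway genes gave 76 genes in lists of ligands, receptors, R-spondins, inhibitor co-receptors, transducers, targets and further antagonists, of which 66 were tested. Across the 4 populations 46 of the 66 were called (69.7%, against 47.5% of all genes). Between the Alcam+ populations 2 were called (3.03%, against 3.82% of all genes), both lower in Itga8+ MSCs: Lrp4, a receptor that anchors sclerostin (-1.81, adjusted p = 0.095, edgeR), and Tcf7, a TCF/LEF factor (-2.05, adjusted p = 0.042). Between 27 and 34 (40.9 to 51.5%) were called in each of the other 5 comparisons, where 20.5 to 35.6% of all genes were. By list, to be read against the same 47.5%, the calls across populations were 10 of 16 Wnt receptors and co-receptors, 1 of 2 inhibitor co-receptors (Lrp4), 6 of 7 R-spondins and their receptors, 8 of 15 transducers and 3 of 4 further secreted antagonists.

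Notum, an enzyme that inactivates Wnt proteins, had a pattern like that of Sfrp5. It was at 138.8, 75.1 and 105.1 CPM in Itga8+ MSCs, at 175.8, 190.3 and 126.5 CPM in Itga8- Alcam+ BLCs, at 5.53, 9.72 and 7.12 CPM in Sca-1+ MSCs, and at 0.847, 0 and 0.483 CPM in CD51+CD140a+ MSCs. Itga8+ MSCs exceeded Sca-1+ MSCs by a log2 difference of 3.83 (adjusted p = 0.0049, edgeR). Igfbp4, a binding protein of insulin-like growth factors that can also inhibit Wnt signalling, had the opposite order, at 3637 to 5558 CPM in CD51+CD140a+ MSCs, 381.4 to 507.3 CPM in Sca-1+ MSCs and 94.4 to 228.3 CPM in the Alcam+ populations. Sostdc1, a relative of Sost named here after its values were seen, was at 0.809 to 9.23 CPM in the Alcam+ populations and had no count in the other 6 libraries.

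Of 13 tested Wnt ligands 11 were called across populations. Wnt11 was at 112.7 to 220 CPM in the Alcam+ populations, 69.1 to 93 CPM in Sca-1+ MSCs and 27.7 to 40.1 CPM in CD51+CD140a+ MSCs. Wnt4 was at 15.6 to 56.8 CPM in the Alcam+ populations and 53.1 to 102.2 CPM in CD51+CD140a+ MSCs, but at 1.22 to 1.63 CPM in Sca-1+ MSCs. Wnt7b, an osteogenic ligand, was at 2.55 to 19.4 CPM in the Alcam+ populations, 0 in CD51+CD140a+ MSCs and at most 0.305 CPM in Sca-1+ MSCs. Wnt2 and Wnt9a were highest in Sca-1+ MSCs, at 6.84 to 18.8 and 27 to 33 CPM.

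The R-spondins, which strengthen Wnt signals, also differed between the populations. Rspo2 was at 101.8 to 126.9 CPM and Rspo3 at 64.8 to 84.7 CPM in CD51+CD140a+ MSCs. Rspo2 was at most 0.834 CPM in the Alcam+ populations, while Rspo3 was at 5.61 to 9.01 CPM there and 0.814 to 1.73 CPM in Sca-1+ MSCs. Rspo4 had another order, at 8.51 to 11.7 CPM in Itga8- Alcam+ BLCs, 3.06 to 6.93 CPM in Itga8+ MSCs, 0.437 to 2.58 CPM in CD51+CD140a+ MSCs and 0.102 to 0.387 CPM in Sca-1+ MSCs. Of the co-receptors that Dkk1 and Dkk2 bind, Lrp6 was lower in both Alcam+ populations against Sca-1+ MSCs (66.4 to 87 CPM). It was at 23.2 to 44 CPM in Itga8+ MSCs, a log2 difference of -1.29 (adjusted p = 0.024, edgeR), and at 14.9 to 31.4 CPM in Itga8- Alcam+ BLCs, a log2 difference of -1.62 (adjusted p = 0.0062). In CD51+CD140a+ MSCs Lrp6 was at 37.8 to 43.1 CPM, within the range of Itga8+ MSCs. Lrp5, named here after its values were seen, was not called across populations. Its means were 2.45 CPM in Sca-1+ MSCs, 3.28 CPM in CD51+CD140a+ MSCs, 4.21 CPM in Itga8+ MSCs and 7.97 CPM in Itga8- Alcam+ BLCs.

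Of 10 tested feedback targets, genes that Wnt signals are known to induce in many tissues, 8 were called across populations. Lef1 was at 56.4 to 122.1 CPM in the Alcam+ populations and at most 4.08 CPM in the other 6 libraries. Tcf7 was at 54.3 to 73.9 CPM in Itga8- Alcam+ BLCs, but at 10.4 to 19.9 CPM in Itga8+ MSCs, near CD51+CD140a+ MSCs at 6.34 to 9.32 CPM. In Sca-1+ MSCs it was at 1.16 to 5.06 CPM. Tnfrsf19 had the reverse order at its top, at 640.6 to 854.2 CPM in CD51+CD140a+ MSCs and at most 65.1 CPM elsewhere. The means of Nkd1 (21.65 CPM) and Znrf3 (11.5 CPM) were also highest in CD51+CD140a+ MSCs. Mean Nkd2 was highest in Itga8+ MSCs (137.7 CPM), followed by CD51+CD140a+ MSCs (90.7 CPM), and mean Apcdd1 was highest in Itga8- Alcam+ BLCs (19.5 CPM). Axin2, a widely used target that was not called and is named here after its values were seen, was at most 1.37 CPM in all libraries.

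**Figure D4:**
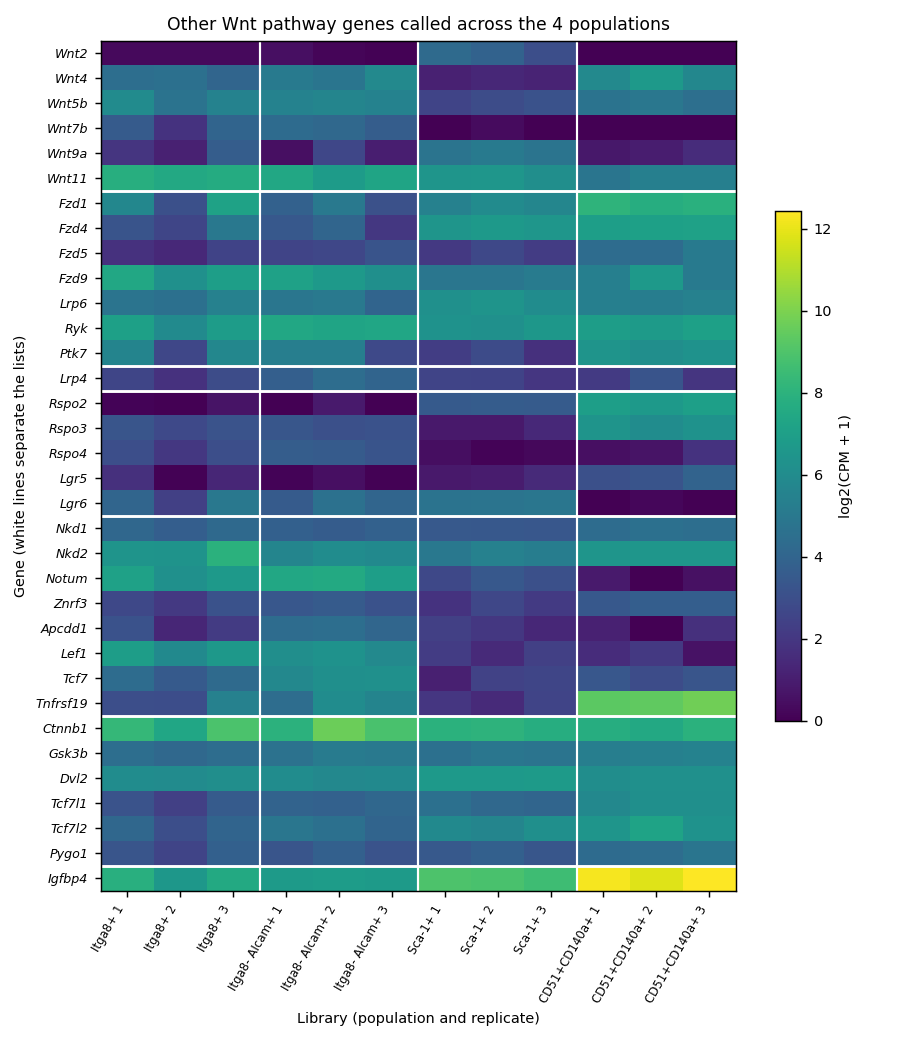
Level of the 34 other Wnt pathway genes that were called across the populations with at least 10 CPM in their highest population, as log2(CPM + 1) by colour, with genes as rows and the 12 libraries as columns. Lef1 and Notum are bright in the 6 Alcam+ libraries on the left, and Igfbp4, Tnfrsf19, Rspo2 and Rspo3 in the 3 CD51+CD140a+ libraries on the right.

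For each inhibitor above 5 CPM in its highest population, the genes with the most similar pattern were taken from 12287 genes by Pearson's r of log2(CPM + 1) over the 12 libraries. With 4 groups of libraries such values are high for many genes, and they describe these libraries only. Dkk1 was closest to AU021092 (0.99), Mlip (0.989) and Prr9 (0.988), and Dkk2 to Scg3 (0.993), Fam124a (0.987) and C7, a complement component (0.986). Dkk3 was closest to Ecm1, an extracellular matrix protein (0.974), Abhd4 (0.974) and Phkg1 (0.971). Sfrp1 was closest to Erlin2 (0.992), Trim26 (0.989) and Tnfaip3, an inhibitor of NF-kB signalling (0.985).

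Sfrp4 was closest to Gm16567 (0.994), C1s1, a complement protease (0.992), and Pi15 (0.988), where Gm16567 lies on the opposite strand of C1s1 and the reads of these 2 genes may not be separate. Sfrp2 had the least close neighbours, B3glct (0.953), Tpst1 (0.943) and Osbpl1a (0.939). Sfrp5 was closest to Perp (0.986), Slc31a1 (0.984) and Notumos (0.984), which lies on the opposite strand of Notum. Frzb was closest to Lypd1 (0.979), Pycr1, an enzyme of proline synthesis (0.977), and Gdi2 (0.973). Wif1 was closest to Nifk (0.982), Taf13 (0.976) and Prss57, a serine protease of neutrophil granules (0.972), which was at a mean of 44.7 CPM in Itga8+ MSCs, 37.8 CPM in Itga8- Alcam+ BLCs, 14.1 CPM in Sca-1+ MSCs and 5.58 CPM in CD51+CD140a+ MSCs.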

How the data were processed

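RNA was prepared by the authors from sorted cells and amplified as cDNA with SMART-Seq v4, and Nextera XT libraries were sequenced on a NextSeq 500. Each of 12 libraries has its own table of read counts by Ensembl gene, deposited by the authors without normalisation. The study's methods name TopHat and Bowtie2 on mm10, and the submitters' processing notes list FastQC 0.11.7, Trimmomatic 0.38, HISAT2 2.1.0, SAMtools 1.9 and featureCounts 1.6.3. The annotation release and the use of strand are not given in the sources used here. PCR copies cannot be told from separate molecules, so that intervals and floors cover counting error only.

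Positions, names and exon lengths came from GENCODE M21 (GRCm38). Of 49585 genes 259 had no match there and held at most 0.0163% of a library's counts. All 12 libraries were fitted with edgeR 4.0.16 in R 4.3.3 (quasi-likelihood test, TMM) over the 18648 genes that reached 0.5 CPM (unscaled) in any library, p-values were adjusted over all of them with the Benjamini-Hochberg method, and 6 pairs of populations were compared. A call needed an adjusted p under 0.1 together with a change of more than 2-fold, as the study set, and the test across populations only the former. A two-sided exact permutation test with 3 libraries a side cannot go below p = 0.1 and was used only to record overlap. Levels were compared on the log2(CPM + 1) scale where stated. The script was tested on simulated data. Plots and summaries used Python 3.11.15.

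The inhibitors, the gene lists and the tests were chosen with earlier results of these data known. All 10 inhibitors are named with their values. Pathway genes were named from those called across populations with at least 10 CPM in the highest population, except where the text says that a gene was named after its values were seen. Other genes are named only for the closest patterns or as markers. Alternatives were DESeq2 1.42.0, scaling by DESeq2-type size factors or by totals alone, keeping every gene with 1 count or more, a block for replicate number, only the populations compared, TPM in place of CPM, and each library left out. Labels gave the groups. The result of 1 further marker list is not reported here.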

Additional observations from a re-analysis of the deposited data

How the results depend on the processing

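Of 979 recomputed single-gene values over 63 results, 932 kept their direction and side of the thresholds, 20 lost a call, 15 gained one and 12 turned in sign. The numbers of inhibitors called across the populations and in 5 of the 6 comparisons stayed within 1.5 times of the main number in every alternative. Between Itga8+ MSCs and Itga8- Alcam+ BLCs, 3 were called by edgeR, 5 by DESeq2, which added Dkk2 and Sfrp5, and 1 (Dkk1) when only these populations were fitted. With 1 library left out, the number ranged from 1, without Itga8- Alcam+ BLC replicate 3, to 4. For this comparison DESeq2 called 1203 of all genes and edgeR 712.

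The sign turned only for differences that were not called. Leaving out libraries in turn gave ranges of -0.17 to 0.26 for Dkk3, -0.26 to 0.65 for Sfrp1 and -0.33 to 0.47 for Wif1 in Itga8+ MSCs over Itga8- Alcam+ BLCs, and of -2.62 to 5.09 for Dkk1 in Itga8+ MSCs over CD51+CD140a+ MSCs. They were -0.68 to 0.58 for Sfrp2 in Itga8- Alcam+ BLCs over CD51+CD140a+ MSCs and -0.057 to 0.245 for Sfrp4 in Sca-1+ MSCs over CD51+CD140a+ MSCs. With library totals alone the last was -0.025, and the median of all genes moved from 0.08 to 0.34 in Itga8+ MSCs over Itga8- Alcam+ BLCs and from 0.09 to -0.24 in Itga8- Alcam+ BLCs over CD51+CD140a+ MSCs. The cause of these turns was not tested.

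Replicate numbers did not pair the libraries, since 5 of 18 same-numbered pairs had deviations correlated above 0.1 and the closest library carried the same number in 13 of 36 cases. With a replicate block, the value was 0.17 for Dkk1 in Itga8+ MSCs over CD51+CD140a+ MSCs and -0.029 for Sfrp2 in Itga8- Alcam+ BLCs over CD51+CD140a+ MSCs. The block left the number called at 3 between the Alcam+ populations, ended the call of Sfrp1 in Itga8+ MSCs against Sca-1+ MSCs and added that of Dkk3 against CD51+CD140a+ MSCs. Depth limits Sost, Dkk1 outside Itga8- Alcam+ BLCs, and Dkk2 and Sfrp5 in CD51+CD140a+ MSCs, where counts were at or near the floor.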
